A study of Mus musculus with 12 samples.

Results

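The 10 genes described here are markers of the blood vessel lining in mouse bone marrow, chosen by gene symbol: Kdr, Flt1, Tek, Eng, Cdh5, Pecam1, Emcn, Stab1, Stab2 and Plvap. All 10 were found among the 24444 gene symbols of each of 2 deposited tables, and all 10 passed the filter on low counts in every comparison. Bulk RNA of bone marrow cells from C57BL/6 mice was sequenced in 12 libraries, 3 for each of 4 groups. H-old libraries came from Hopx-knockout mice and W-old libraries from Hopx wild-type mice, both labelled aged with an age of 18 weeks. H-MN1 libraries came from Hopx-knockout and W-MN1 libraries from Hopx wild-type mice, both with MN1 overexpression and an age of 16 weeks. Hopx encodes a homeodomain-only protein, and MN1 is a transcriptional cofactor that causes myeloid leukaemia in mice when overexpressed. The labels give no promoter, vector or cell of expression for MN1 and no design of the Hopx deletion. Nothing in them says that each library came from a separate mouse, so p-values measure the spread between libraries.

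Endothelial cells line the arteries, capillaries and sinusoids of the marrow. Vascular endothelial growth factor acts on them through KDR, the main signalling receptor, while FLT1 binds the same ligand with weak signalling and acts largely as a decoy. TEK receives angiopoietins, ENG is a co-receptor for BMP and TGF-beta ligands, and CDH5 and PECAM1 hold neighbouring cells together. STAB1 and STAB2 are scavenger receptors of sinusoidal endothelium, PLVAP forms the diaphragms of fenestrae and caveolae, and EMCN is a surface sialomucin. Several of these genes are also used outside vessels: Pecam1 by platelets and leukocytes, Eng and Tek by stem cells, and Stab1 by macrophages.

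Library totals ran from 16544407 to 28409046 counts. The 10 genes together took 0.00505 to 0.0231% of a library, so counting error is large for the rarer ones. Hopx was at 0 to 0.121 CPM (each gene's count over the library total, on the usual CPM scale) in H-old libraries and at 14.2 to 33.6 CPM in W-old libraries. It was at 2.92 to 3.51 CPM in H-MN1 libraries and at 14.1 to 27.9 CPM in W-MN1 libraries. Mn1 was at 22.1 to 47.3 CPM in H-MN1 libraries. Among the libraries labelled W-MN1 it was at 36.4 CPM in replicate 3 but at 0.395 CPM in replicate 2 and 0.16 CPM in replicate 4, against 0.456 to 1.18 CPM in W-old libraries, so those 2 libraries go against their label. The summed level of 4 Y-linked genes was 8.05 to 21.6 CPM in H-MN1 libraries and 241, 81.8 and 229 CPM in W-MN1 replicates 2, 3 and 4, but at most 0.152 CPM in the old libraries. Xist was at 585 to 4937 CPM in H-MN1 libraries and at 18.1, 4001 and 2.40 CPM in the same 3 W-MN1 libraries, and at 435 to 823 CPM in the old libraries. The labels give neither sex nor the origin of the cells. H-MN1 libraries thus held 67 to 85 Hopx counts, against 0 to 2 in H-old libraries, together with both Y-linked and Xist reads, so their endothelial values cannot be assigned to Hopx-knockout vessel cells alone. The part of these differences in the results was not tested.

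Per transcript length, Pecam1 was the most abundant of the 10 genes in every group. Its mean level was 14.8 ± 4.80 TPM (the length-corrected transcript measure) in H-old, 22.0 ± 1.67 TPM in W-old, 52.6 ± 33.8 TPM in H-MN1 and 43.3 ± 28.1 TPM in W-MN1 libraries (SD, n = 3 each). It supplied 51.6 to 66.7% of the summed TPM of the 10 genes, and its libraries did not overlap those of the next gene in any group. Eng was second in H-old at 5.17 ± 1.99 TPM, in W-old at 9.99 ± 1.97 TPM and in W-MN1 at 14.4 ± 5.00 TPM. The order differed in H-MN1, where Flt1 stood second at 8.97 ± 4.58 TPM and overlapped Eng at 7.67 ± 2.12 TPM. In W-old, Flt1 was ninth at 0.64 ± 0.0866 TPM, overlapping Stab1 above it and Tek below it. From rank 3 down in H-old each gene overlapped its neighbour, from Plvap at 1.10 ± 0.448 TPM to Stab2 at 0.34 ± 0.192 TPM.

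**Figure D1:**
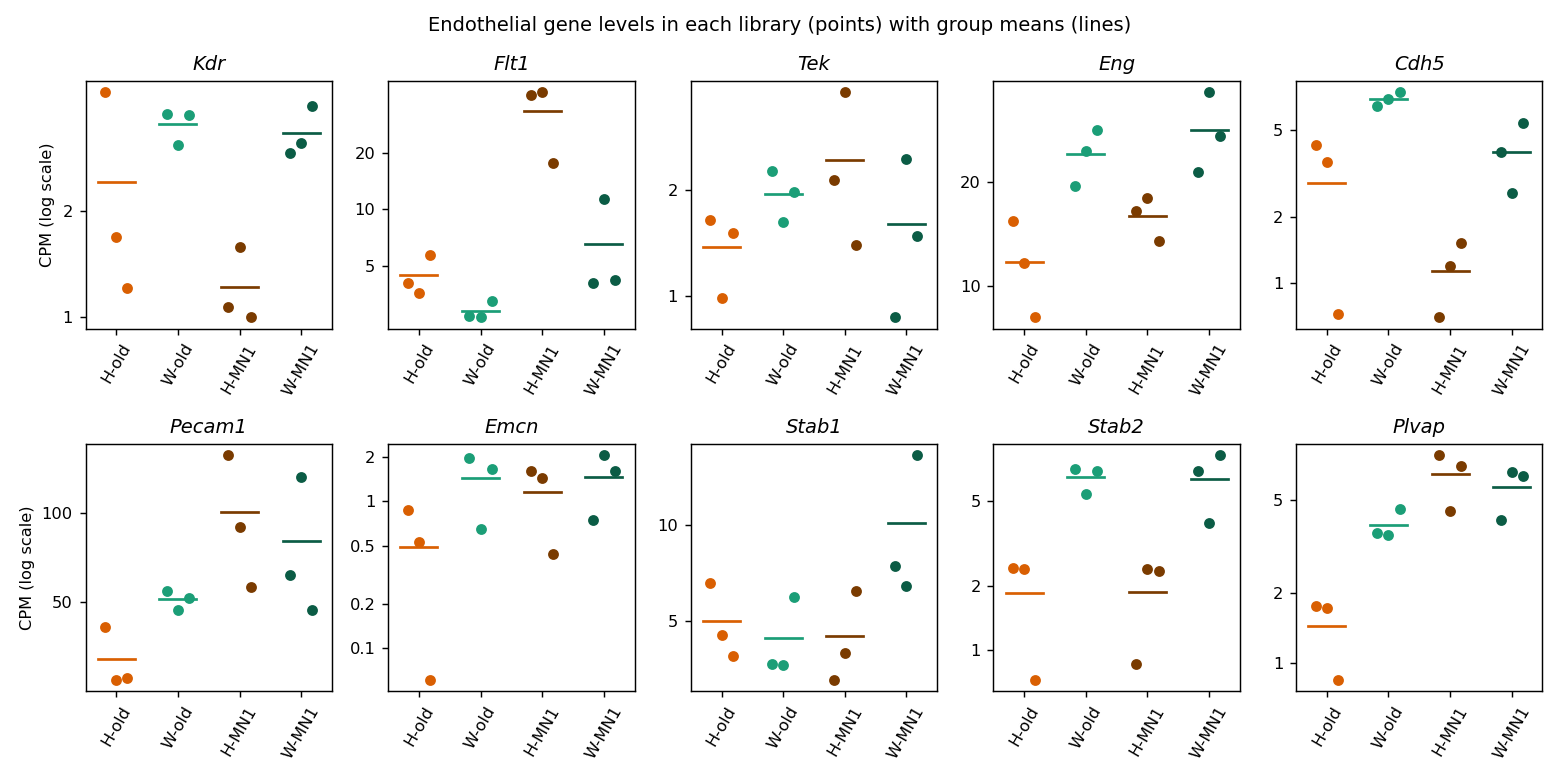
CPM of each of the 10 genes (log scale, a separate range for each panel) in the 3 libraries of H-old, W-old, H-MN1 and W-MN1; points are libraries in ascending replicate number and lines are group means. Stab2 and Cdh5 were lower in every H-old library than in every W-old library and in every H-MN1 than in every W-MN1 library, while Flt1 was higher in both.

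The first comparison asked how the genes differed between Hopx-knockout and wild-type marrow at 18 weeks. Stab2, Plvap, Eng and Pecam1 fell in H-old and Flt1 rose. In edgeR's quasi-likelihood test across 12771 genes, at an adjusted p under 0.05, 15.8% of all genes were called lower in H-old and 15.6% higher. Of the 10 endothelial genes, 4 were called lower and 1 higher. Their median log2 fold change was -0.68, against -0.02 over all genes. In bulk RNA, fewer cells of a type and less RNA per cell cannot be told apart.

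Of the 2 VEGF receptors among the 10 genes, Flt1 rose and Kdr did not pass the test. Flt1 (chr5:147561604-147726011 of mm10, minus strand) had 4.06, 3.56 and 5.68 CPM in H-old replicates 3, 9 and 10, against 2.69, 2.65 and 3.24 CPM in W-old replicates 1, 6 and 7. Every H-old library was above every W-old library. The log2 fold change was 0.80 ± 0.24 (SE, edgeR adjusted p = 0.0297), but it missed the threshold without H-old replicate 10 (adjusted p = 0.0613) and without W-old replicate 1, 6 or 7 (adjusted p = 0.0705, 0.0993 and 0.0554).

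Kdr (chr5:75932827-75978458, minus strand) had 4.34, 1.69 and 1.21 CPM in H-old and 3.77, 3.07 and 3.75 CPM in W-old. H-old replicate 3 was the highest of the 6 libraries and the other 2 H-old libraries the lowest, so the groups overlapped. The log2 fold change was -0.39 with a 95% interval of -1.29 to 0.50 (edgeR adjusted p = 0.478), and without H-old replicate 3 it was -1.02 (adjusted p = 0.0439). The ratio of Flt1 to Kdr in TPM, a pair chosen after the values were seen, was 0.811, 1.82 and 4.00 in H-old libraries and 0.615, 0.747 and 0.755 in W-old libraries. The groups did not overlap, and a two-sided exact permutation test gave p = 0.1, the smallest that 3 against 3 libraries allow. Bulk RNA does not show whether both transcripts came from the same cells.

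The bases just upstream of both genes are printed because the ratio of these VEGF receptors separated the groups. The 250 bases before the gene's start are from RefSeq (GRCm38.p6), on the gene's own strand, 5′ to 3′, with capitals at matches to the ETS words CGGAAG and AGGAAG on either strand. ETS factors bind many endothelial promoters. The Flt1 window at chr5:147726012-147726261, minus strand, held 2 matches, and the Kdr window at chr5:75978456-75978705, minus strand, held 0. Windows of Eng, Emcn and Stab1, not printed, also held 2 each, that of Stab2 held 1 and that of Tek 0. The RefSeq and GENCODE starts of Kdr differ, and 3 bases of its window lie inside the GENCODE gene. For Emcn 11 bases and for Stab2 83 bases do so, and the Stab2 match falls within those 83.
Flt1: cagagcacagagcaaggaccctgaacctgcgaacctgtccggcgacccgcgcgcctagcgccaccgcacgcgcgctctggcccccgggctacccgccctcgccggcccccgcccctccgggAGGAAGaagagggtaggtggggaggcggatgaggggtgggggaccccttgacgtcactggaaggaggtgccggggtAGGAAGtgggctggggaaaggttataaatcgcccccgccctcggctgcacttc
Kdr: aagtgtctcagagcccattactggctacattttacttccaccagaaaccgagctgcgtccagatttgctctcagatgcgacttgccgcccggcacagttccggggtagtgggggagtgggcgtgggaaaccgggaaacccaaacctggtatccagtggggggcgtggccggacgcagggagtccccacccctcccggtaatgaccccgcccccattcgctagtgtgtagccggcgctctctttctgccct
Of 32851 promoter windows of the same length, 39.2% held at least 1 ETS match and 11.3% at least 2, so a match is common and only describes the letters. The GATA words AGATAA and TGATAA, on either strand, were in 16.6% of all windows and in neither printed window.

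Of the other receptors, Eng was called lower and Tek was not. Eng (chr2:32646595-32682669, plus strand) had 15.4, 11.7 and 8.10 CPM in H-old and 19.5, 24.7 and 28.4 CPM in W-old. The groups did not overlap, and the log2 fold change was -0.86 ± 0.22 (SE, edgeR adjusted p = 0.0160), with adjusted p = 0.0583 without W-old replicate 7. The opposite strand of the Eng locus holds Fpgs, and whether counting used strand is not given in the sources used here. Tek (chr4:94739289-94874976, plus strand) had 1.65, 0.986 and 1.51 CPM in H-old and 2.26, 1.63 and 1.98 CPM in W-old. The groups overlapped by a small margin, and the log2 fold change was -0.35 (95% interval -0.997 to 0.31, edgeR adjusted p = 0.391).

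Of the junction genes, Pecam1 was called lower and Cdh5 was not. Pecam1 had 41.4, 27.4 and 27.7 CPM in H-old and 54.6, 47.2 and 51.7 CPM in W-old, with no overlap. The log2 fold change was -0.50 ± 0.14 (SE, edgeR adjusted p = 0.0267), and the adjusted p was 0.0959 without H-old replicate 9, 0.0565 without H-old replicate 10, 0.0792 without W-old replicate 1 and 0.0673 without W-old replicate 7. Cdh5 (chr8:104101625-104144511, plus strand) had 4.28, 3.59 and 0.725 CPM in H-old and 6.46, 6.98 and 7.45 CPM in W-old. Every H-old library was below every W-old library, with H-old replicate 10 far below the rest. The log2 fold change was -1.07 (95% interval -2.17 to 0.03, edgeR adjusted p = 0.123), and it was -0.64 with adjusted p = 0.0233 without H-old replicate 10. The surface sialomucin gene Emcn (chr3:137341067-137432185, plus strand) had 0.878, 0.528 and 0.0604 CPM in H-old and 1.99, 0.651 and 1.67 CPM in W-old. H-old replicate 10 held 1 Emcn count, the groups overlapped, and the log2 fold change was -1.32 (95% interval -2.77 to 0.12, edgeR adjusted p = 0.144).

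Of the scavenger receptors, Stab2 fell and Stab1 did not pass the test. Stab2 (chr10:86841198-87008025, minus strand), which clears hyaluronan from the blood, had 2.42, 2.39 and 0.725 CPM in H-old and 7.05, 5.39 and 6.84 CPM in W-old. The groups were far apart, with a log2 fold change of -1.58 ± 0.37 (SE, edgeR adjusted p = 0.0123). Stab2 was the only one of the 10 genes called after leaving out any 1 of the 6 libraries, with adjusted p between 0.00498 and 0.0369. With the spread estimated from all 12 libraries its adjusted p was 0.105, and of the 10 genes Eng alone was then called.

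Stab1 (chr14:31139013-31168641, minus strand) had 6.59, 4.51 and 3.87 CPM in H-old and 3.66, 3.63 and 5.93 CPM in W-old. The groups overlapped, and the log2 fold change was 0.35 (95% interval -0.23 to 0.94, edgeR adjusted p = 0.323). The ratio of Stab1 to Stab2 in TPM, also chosen after its values were seen, was 2.79, 1.91 and 5.50 in H-old and 0.525, 0.685 and 0.882 in W-old. Stab1 thus exceeded Stab2 per length in each H-old library and in no W-old library (two-sided exact permutation p = 0.1, the smallest possible). The summed level of 14 macrophage genes was 501 to 781 CPM in H-old and 748 to 907 CPM in W-old. Of these genes 8 fell in H-old and none rose in edgeR's test, against 15.8% and 15.6% of all genes. The median log2 fold change of the macrophage genes was -0.95, and their part in the Stab1 values was not tested.

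Plvap (chr8:71497765-71511752, minus strand) had 1.76, 1.72 and 0.846 CPM in H-old and 3.61, 3.53 and 4.56 CPM in W-old. The groups did not overlap, and the log2 fold change was -1.22 ± 0.30 (SE, edgeR adjusted p = 0.0147), with adjusted p = 0.0542 without W-old replicate 7. Gtpbp3 lies on the opposite strand of this locus. Nt5dc2 lies opposite Stab1, the antisense gene Gm29682 opposite Cdh5, and antisense and pseudogene entries opposite Stab2.

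In plain CPM 5 of the genes, namely Cdh5, Pecam1, Eng, Stab2 and Plvap, were lower in every H-old library than in every W-old library, against 38.4% of all genes, and Flt1 was higher in every one, against 12.5%. The plain CPM of the median gene was lower in H-old by a log2 difference of -0.20. With trimmed-mean scaling the same 6 genes kept groups that did not overlap, and the shares of all genes were 25% and 23.4%. H-old replicate 10 was the lowest H-old library for Kdr, Cdh5, Emcn, Eng, Stab1, Stab2 and Plvap, and the highest for Flt1. Without it, the adjusted p of Stab2, Plvap and Eng stayed under 0.05.

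The summed level of the 10 genes was 50.5, 58.0 and 82.8 CPM from lowest to highest in H-old and 99.4, 105.6 and 115.5 CPM in W-old. Pecam1 and Eng supplied 60.9 to 81.4% of it over all 12 libraries. Without Pecam1, Eng and Stab1 the sum was 10.8 to 19.4 CPM in H-old and 23.9 to 29.5 CPM in W-old. Markers of other cell types also changed, to be read against 15.8% of all genes called lower and 15.6% higher. Of 13 megakaryocyte and platelet genes 12 fell in H-old, of 12 stem and progenitor genes 5 fell, and of 8 B cell genes all 8 fell. Of 14 macrophage genes 8 fell, of 10 erythroid genes 8, of 13 stromal genes tested 4 and of 6 monocyte genes 2. By contrast, 5 of 10 neutrophil genes rose. Their summed levels in H-old and W-old were 127 to 191 and 372 to 472 CPM for megakaryocyte and platelet genes, 143 to 153 and 223 to 238 CPM for stem and progenitor genes, and 19.2 to 29.6 and 369 to 811 CPM for B cell genes. Their part in the endothelial values was not tested.

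A second list held 41 further endothelial genes. Of these 31 were tested, 11 fell and 3 rose, against 15.8% and 15.6% of all genes. Their median log2 fold change was -0.65. Vwf, the clotting factor carrier of endothelium and platelets, fell by 1.27 on the log2 scale (edgeR adjusted p = 0.00293). Cd34, a surface sialomucin of vessels and progenitors, fell by 0.71 (edgeR adjusted p = 0.00237). Flt4, the receptor for VEGF-C, fell by 1.23 (edgeR adjusted p = 0.0155), with 0.484 to 0.774 CPM in H-old and 1.63 to 1.88 CPM in W-old; it is named beside Kdr and Flt1 after its values were seen. The 3 that rose were Podxl, another sialomucin of the CD34 family, with a log2 fold change of 3.04 ± 0.28 (SE, edgeR adjusted p = 0.000356), Selp, which encodes P-selectin, with 1.02 ± 0.16 (SE), and the ETS factor gene Erg with 0.87 ± 0.11 (SE). Podxl had a median of 9.01 CPM in H-old and 1.30 CPM in W-old.

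Of 24 ligands and partners of the 10 receptors and junction proteins, 20 were tested. Of these 8 rose and 5 fell, against 15.6% and 15.8% of all genes, with a median log2 fold change of 0.08. Acvrl1, the type I receptor that works with ENG, rose with a log2 fold change of 1.45 ± 0.16 (SE, edgeR adjusted p = 0.000677). It ran from 186 to 206 CPM in H-old and from 64.2 to 96.9 CPM in W-old, so its RNA and that of Eng went in opposite directions. Bulk RNA does not show whether Acvrl1 or the other partner transcripts came from the cells that held Eng. Vegfa, the ligand of KDR and FLT1, rose by 0.81 ± 0.10 (SE, edgeR adjusted p = 0.000876). Its levels were 58.8 to 72.7 CPM in H-old and 39.9 to 46.1 CPM in W-old. Smad1, which carries the BMP signal, rose by 0.89, and Ctnnd1, the p120 catenin that binds cadherins, by 0.55. Angpt1, the agonist of TEK, fell by 0.97 (edgeR adjusted p = 0.00848), with 6.53 to 9.08 CPM in H-old and 14.1 to 20.7 CPM in W-old.

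**Figure D2:**
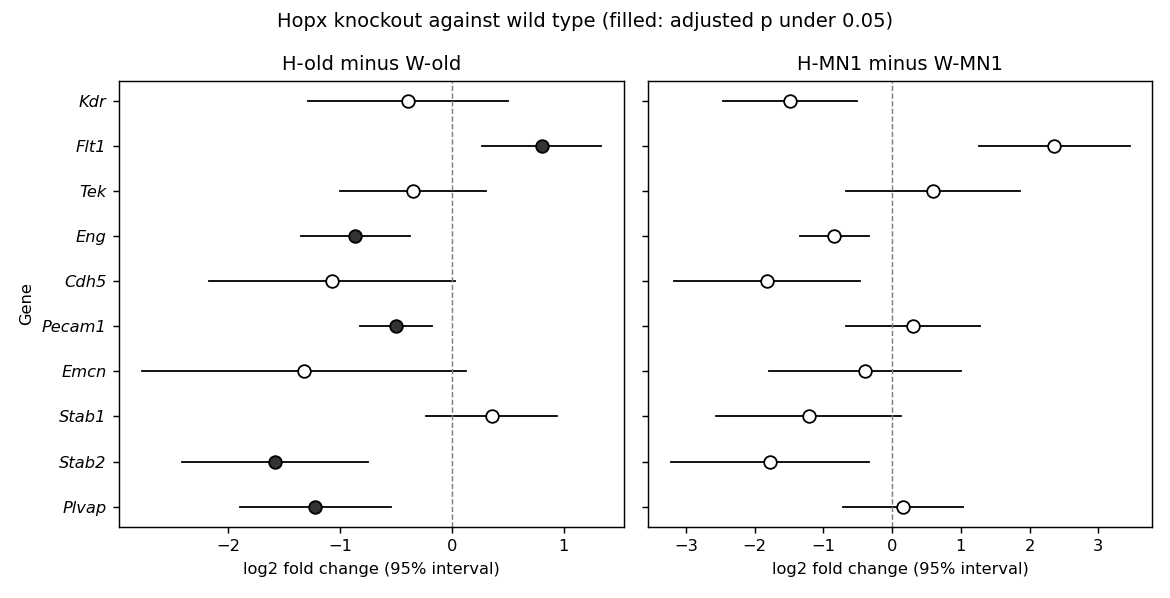
Log2 fold changes of Hopx knockout over wild type with 95% intervals for the 10 genes, old libraries on the left and MN1 libraries on the right; filled points have an edgeR adjusted p under 0.05. Flt1 lies right of 0 and Stab2, Cdh5 and Eng left of it in both panels, but the 5 filled points are all in the old libraries.

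The second comparison set Hopx-knockout against wild-type marrow within the MN1 table. Flt1 had more and Cdh5, Kdr, Eng and Stab2 less CPM in every H-MN1 than in every W-MN1 library, yet edgeR's quasi-likelihood test called none of 13525 genes (0%) at an adjusted p under 0.05. At an unadjusted p under 0.05 it listed 5.8% of all genes as lower and 4.2% as higher, and among the 10 endothelial genes 4 as lower and 1 as higher. DESeq2 called 565 genes and 4 of the 10, namely Cdh5, Kdr and Eng lower and Flt1 higher. The median log2 fold change of the 10 genes was -0.62, against 0.03 over all genes.

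Flt1 had 40.8, 42.2 and 17.7 CPM in H-MN1 replicates 5, 7 and 8, against 4.03, 11.3 and 4.20 CPM in W-MN1 replicates 2, 3 and 4. The highest W-MN1 value was that of replicate 3, the W-MN1 library with Mn1 at 36.4 CPM. The log2 fold change was 2.36 ± 0.46 (SE, edgeR adjusted p = 0.194). It was 2.87 with adjusted p = 0.0277 without W-MN1 replicate 3, and 2.33 with adjusted p = 0.0118 when all 12 libraries set the spread. Without replicate 3, the W-MN1 libraries left had Mn1 at 0.395 and 0.16 CPM, against 22.1 to 47.3 CPM in H-MN1. Genotype and Mn1 level cannot be told apart in that fit.

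Kdr had 1.07, 1.59 and 1.001 CPM in H-MN1 and 2.93, 3.11 and 3.96 CPM in W-MN1. The groups did not overlap, and the log2 fold change was -1.49 (95% interval -2.47 to -0.52, unadjusted; edgeR adjusted p = 0.284). The ratio of Flt1 to Kdr in TPM was 32.7, 23.1 and 15.5 in H-MN1 and 1.2, 3.14 and 0.915 in W-MN1. This separation was wider than in the old libraries, with a mean difference of 3.91 against 1.36 on the log2 scale, and the exact permutation p was again 0.1. The highest W-MN1 ratio, 3.14, was that of replicate 3, with Mn1 at 36.4 CPM. Replicates 2 and 4 had Mn1 at 0.395 and 0.16 CPM, so genotype and Mn1 level are mixed in the mean difference of the MN1 libraries. Whether the 2 differences differ was not tested for the ratio. Here too, bulk RNA does not show whether Flt1 and Kdr transcripts came from the same cells.

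Eng had 16.5, 17.9 and 13.5 CPM in H-MN1 and 21.5, 36.5 and 27.2 CPM in W-MN1, a log2 fold change of -0.85 ± 0.21 (SE, edgeR adjusted p = 0.263). Cdh5 had 0.699, 1.2 and 1.52 CPM in H-MN1 and 3.99, 2.57 and 5.40 CPM in W-MN1, a log2 fold change of -1.83 ± 0.56 (SE, edgeR adjusted p = 0.343). Stab2 had 0.864, 2.40 and 2.35 CPM in H-MN1 and 6.88, 3.94 and 8.17 CPM in W-MN1, a log2 fold change of -1.78 ± 0.60 (SE, edgeR adjusted p = 0.387). None of these 3 overlapped between the groups, and none passed the threshold in edgeR.

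Stab1 had 3.25, 3.94 and 6.22 CPM in H-MN1 and 7.43, 6.44 and 16.7 CPM in W-MN1, with a log2 fold change of -1.21 (95% interval -2.56 to 0.14, edgeR adjusted p = 0.551). The groups were narrowly apart in plain CPM and overlapped after trimmed-mean scaling. The ratio of Stab1 to Stab2 was 3.80, 1.65 and 2.68 in H-MN1 and 1.10, 1.66 and 2.08 in W-MN1, with overlap (exact permutation p = 0.3). The 14 macrophage genes summed to 427 to 511 CPM in H-MN1 and 609 to 1054 CPM in W-MN1, and their part in the Stab1 values was not tested.

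Pecam1, Plvap, Emcn and Tek overlapped between the MN1 groups. Pecam1 had 156, 89.5 and 56.3 CPM in H-MN1 and 61.9, 132 and 47.2 CPM in W-MN1, with the highest W-MN1 value again in replicate 3. Plvap had 7.77, 4.47 and 7.00 CPM in H-MN1 and 4.11, 6.56 and 6.33 CPM in W-MN1. Both genes spanned nearly the same range in the 2 groups, with log2 fold changes of 0.30 (95% interval -0.68 to 1.28) and 0.16 (95% interval -0.71 to 1.04). Emcn ran from 0.435 to 1.60 CPM in H-MN1 and from 0.751 to 2.08 CPM in W-MN1. Tek ran from 1.39 to 3.80 CPM in H-MN1 and from 0.870 to 2.45 CPM in W-MN1. Their intervals, -1.80 to 1.00 for Emcn and -0.67 to 1.87 for Tek on the log2 scale, are wide at these low counts.

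In plain CPM, 5 of the 10 genes were lower in every H-MN1 than in every W-MN1 library, against 8.33% of all genes, and 1 was higher, against 6.73%. With W-MN1 replicate 3 as the only wild-type library, which assumes that it varies like the H-MN1 libraries, no gene was called. The log2 fold change was then 1.69 for Flt1, -0.98 for Cdh5 and -0.88 for Stab2, against 2.36, -1.83 and -1.78 with all 3 W-MN1 libraries. The stem and progenitor genes summed to 882 to 3530 CPM in H-MN1 and to 300, 3749 and 216 CPM in W-MN1 replicates 2, 3 and 4. Of the 41 further endothelial genes 31 were tested and of the ligands and partners 22, and edgeR called none of them. The median log2 fold changes were -0.56 and 0.14. Podxl ran from 22.5 to 69.8 CPM in H-MN1 and from 2.08 to 13.8 CPM in W-MN1, and Vegfa from 35.3 to 57.8 CPM in H-MN1 and from 23.5 to 43.4 CPM in W-MN1.

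**Figure D3:**
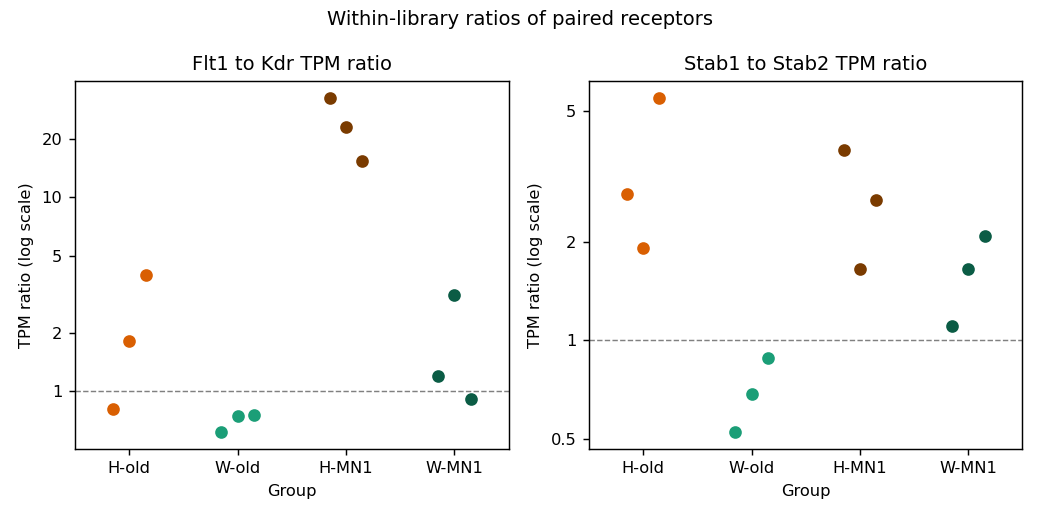
Ratio of Flt1 to Kdr and of Stab1 to Stab2 in TPM (log scale), 1 point for each library by group; the dashed line marks equal TPM. The H-MN1 libraries have 15.5 to 32.7 times as much Flt1 as Kdr per length, against 0.915 to 3.14 times in W-MN1, and Stab1 exceeds Stab2 in all 3 H-old libraries but in none of W-old. The W-MN1 ratio of 3.14 is that of replicate 3, with Mn1 at 36.4 CPM, against 0.395 and 0.16 CPM in replicates 2 and 4.

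The MN1 and old libraries were also compared within each genotype. MN1 label, labelled age and deposited table coincide here and cannot be told apart, and these contrasts share libraries with those above. H-MN1 libraries had 5.74 times as much Flt1 and 3.42 times as much Plvap as H-old libraries. Across 13937 genes, 21.1% were called higher in H-MN1 and 16.8% lower. Of the 10 endothelial genes 3 rose and 2 fell, with a median log2 fold change of 0.26 against 0.08 over all genes. For Flt1 the log2 fold change was 2.52 ± 0.39 (SE, edgeR adjusted p = 0.00226), with 17.7 to 42.2 CPM in H-MN1 and 3.56 to 5.68 CPM in H-old. Plvap followed with 1.77 ± 0.35 (SE, edgeR adjusted p = 0.00496), at 4.47 to 7.77 CPM in H-MN1 and 0.846 to 1.76 CPM in H-old. These 2 were called after leaving out any 1 of the 12 libraries.

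Pecam1 rose by 1.24 ± 0.34 (SE, edgeR adjusted p = 0.0183), and its adjusted p was 0.0705 without H-old replicate 9, 0.0604 without H-old replicate 10 and 0.0759 without H-MN1 replicate 5. Its levels were 56.3 to 156 CPM in H-MN1 and 27.4 to 41.4 CPM in H-old. Kdr fell by 1.32 (edgeR adjusted p = 0.0353) and Cdh5 by 1.66 (edgeR adjusted p = 0.0453), though the groups overlapped for both. Each was called after only 4 of the 12 single omissions. Leaving out H-old replicate 3 gave adjusted p = 0.178 for Kdr and 0.139 for Cdh5. For Kdr the call was also missed without H-old replicate 9, any 1 W-old library or any 1 H-MN1 library (adjusted p 0.0502 to 0.102). For Cdh5 it was also missed without H-old replicate 9, any 1 W-old library, H-MN1 replicate 5 or 7, or W-MN1 replicate 2 (adjusted p 0.0569 to 0.140).

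The remaining 5 genes had log2 fold changes of H-MN1 over H-old between -0.48 for Stab1 and 0.82 for Emcn. Eng stood at 0.08 (95% interval -0.43 to 0.58). Of the ligands and partners tested, 8 rose and 4 fell, against 21.1% and 16.8% of all genes. Nrp1 and Nrp2, the neuropilin co-receptors of the VEGF receptors, fell by 2.09 (edgeR adjusted p = 0.00366) and 1.82 (edgeR adjusted p = 0.00406) on the log2 scale. Nrp1 ran from 9.22 to 16.2 CPM in H-MN1 and from 26.6 to 50.6 CPM in H-old. Smad1 rose by 2.85 (edgeR adjusted p = 0.00256) and the ligand gene Tgfb3 by 2.78 (edgeR adjusted p = 0.0031). Angpt2, the context-dependent ligand of TEK, had 1.44 to 6.17 CPM in H-MN1 and 0 to 0.106 CPM in H-old. Of the 35 further endothelial genes tested, 7 rose and 4 fell, against the same shares of all genes. Selp fell by 2.62, and Egfl7, a secreted endothelial protein gene, rose by 1.21. Cd34 ran from 109 to 748 CPM in H-MN1 and from 26.2 to 29.7 CPM in H-old. Stem and progenitor genes rose in 11 of 12 cases and summed to 882 to 3530 CPM in H-MN1 and 143 to 153 CPM in H-old, and their part in the endothelial values was not tested.

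Between W-MN1 and W-old, 3.58% of all genes were called and none of the 10 endothelial genes (edgeR quasi-likelihood test; DESeq2 also called 0). Mn1 in W-MN1 replicates 2 and 4 was at 0.395 and 0.16 CPM, below every W-old library (0.456 to 1.18 CPM). Only replicate 3, at 36.4 CPM, was above them, so the contrast is mostly between libraries with little Mn1. At an unadjusted p under 0.05, 2 of the 10 were listed, Flt1 and Stab1, against 24.4% of all genes. The Flt1 log2 fold change was 0.98 (95% interval 0.14 to 1.83, unadjusted; edgeR adjusted p = 0.153). With W-MN1 replicate 3 as the only W-MN1 library, which assumes that it varies like the other groups, it was 1.68 with adjusted p = 0.0173. Stab1 stood at 1.09 (95% interval 0.10 to 2.09, unadjusted; edgeR adjusted p = 0.174). Cdh5 stood at -0.93 (95% interval -2.15 to 0.30), with 2.57 to 5.40 CPM in W-MN1 and 6.46 to 7.45 CPM in W-old, which did not overlap. Vwf was the only further endothelial gene called, with a fall of 1.66 on the log2 scale (edgeR adjusted p = 0.0372). Of the 13 megakaryocyte and platelet genes 8 fell in the same comparison, with a median log2 fold change of -1.75, and their part in the Vwf value was not tested.

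**Figure D4:**
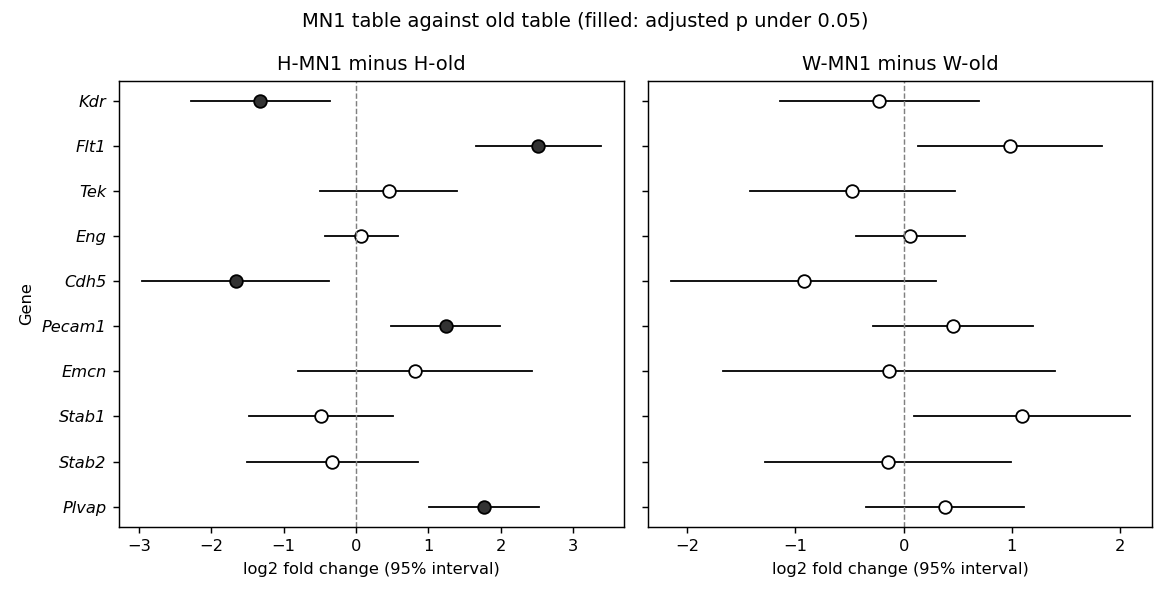
Log2 fold changes of MN1 over old libraries with 95% intervals for the 10 genes, Hopx knockout on the left and wild type on the right; filled points have an edgeR adjusted p under 0.05. Flt1, Plvap and Pecam1 lie right of 0 and Kdr and Cdh5 left of it as filled points in the knockout panel. No point is filled in the wild-type panel, where W-MN1 replicates 2 and 4 had Mn1 below every W-old library.

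Whether the knockout effect differed between the tables was tested as an interaction over all 12 libraries. It was called for 3.32% of all genes and for none of the 10 endothelial genes (edgeR quasi-likelihood test; DESeq2 also called 0). At an unadjusted p under 0.05, 3 of the 10 were listed, against 22.2% of all genes, a share near the background. Plvap had the smallest p, with a difference of 1.39 on the log2 scale (edgeR adjusted p = 0.123). Flt1 followed at 1.54 (edgeR adjusted p = 0.127) and Stab1 at -1.57 (edgeR adjusted p = 0.179). Without W-MN1 replicate 3 the interaction passed for Flt1 at 2.05 (edgeR adjusted p = 0.00728), for Stab1 at -1.89 (adjusted p = 0.0429) and for Pecam1 at 1.2 (adjusted p = 0.0489). The W-MN1 libraries left by that omission, replicates 2 and 4, had Mn1 at 0.395 and 0.16 CPM, against 22.1 to 47.3 CPM in H-MN1. Genotype and Mn1 level therefore cannot be told apart within the MN1 libraries of that fit. Of 22 ligands and partners tested in the interaction over all 12 libraries, 1 rose and 1 fell, against 3.32% of all genes called. These were Tgfb3 at 3.81 (edgeR adjusted p = 0.0171) and Nrp2 at -2.09 (edgeR adjusted p = 0.0398).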

How the data were processed

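Bulk RNA-seq of bone marrow was analysed from 2 gene tables, 1 for the old and 1 for the MN1 libraries. Per the submitters' processing notes, RSEM 1.2.28, Bowtie2 2.3.4.3 and the build mm10 were used; the annotation is not given in the sources used here. The libraries were stranded and poly(A)-selected by kit, per the labels' protocols. The authors deposited expected counts and TPM per gene symbol; FPKM columns were not used. Expected counts were rounded to whole numbers, since 5.2 to 6.84% of genes in a library were not whole. CPM was computed here from the counts and library totals, and TPM served only for levels and ratios between genes. Tests were edgeR 4.0.16 quasi-likelihood fits (TMM factors, filterByExpr, robust, Benjamini-Hochberg over all tested genes, threshold 0.05), run on the 6 libraries of a table for knockout against wild type and on all 12 for the other contrasts. The fits were tested on simulated data with the same spread for every gene and library. The wider spread between MN1 libraries was not simulated, so that check does not cover the fits that use them. Alternatives were DESeq2 1.42.0, other size factors, no filter, all 12 libraries and leaving out each library. The 95% intervals of single fold changes are not adjusted for the number of genes. The 10 genes, the lists and the tests were chosen with earlier results of these data known. The genes named were all 10 members, up to 5 genes from each other list with the smallest adjusted p among those called, and up to 2 more where none was called. Coordinates are from GENCODE M21 and promoter windows from RefSeq, which held 7 of the 10 genes; Cdh5, Pecam1 and Plvap were not in the table.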

Additional observations from a re-analysis of the deposited data

How the results depend on the processing

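No paired analysis was possible because no 2 compared groups share at least 2 replicate numbers. Over the alternatives run for the 10 genes, 607 values kept their direction and side of the threshold, 33 lost and 12 gained a call, and 28 changed sign, none of them a called value; the cause was not tested. For H-old against W-old, all 12 libraries setting the spread gave 818 genes and 1 member instead of 4008 and 5, and leaving out 1 library gave 2402 to 4599 genes and 1 to 6 members. For H-MN1 against W-MN1, DESeq2 called 565 genes and 4 members and all 12 libraries setting the spread gave 464 genes and 1 member, against 0 and 0; leaving out 1 library gave 0 to 896 genes and 0 to 1 members. For W-MN1 against W-old, DESeq2 called 1791 genes against 499, replicate 3 as the only W-MN1 library gave 2465 genes and 1 member, and leaving out 1 library gave 78 to 1775 genes. For H-MN1 against H-old, leaving out 1 library gave 2515 to 7366 genes against 5281 and 2 to 5 members against 5. For the interaction, DESeq2 called 1671 genes against 463, replicate 3 as the only W-MN1 library gave 40, and leaving out 1 library gave 53 to 3337 genes and 0 to 3 members.

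Signs changed only among values near 0 or with wide intervals, in these cases. With replicate 3 as the only W-MN1 library, Pecam1 was -0.28 in H-MN1 against W-MN1, Emcn was 0.23 and Tek 0.026 in W-MN1 against W-old, and Cdh5 was 0.024, Eng -0.25 and Stab2 0.63 in the interaction. The Eng interaction was -0.025 with other size factors, -0.027 with DESeq2 and -0.039 without the filter. Leaving out 1 library gave these ranges in H-MN1 against W-MN1: -0.10 to 0.72 for Pecam1 and -0.012 to 0.35 for Plvap. In W-MN1 against W-old they were -0.48 to 0.20 for Emcn, -0.063 to 0.21 for Eng and -0.42 to 0.15 for Stab2. In H-MN1 against H-old they were -0.13 to 0.26 for Eng, -0.70 to 0.028 for Stab2 and -0.026 to 0.68 for Tek. In the interaction they were -0.19 to 0.20 for Eng and -0.55 to 0.17 for Stab2. Leaving out Pecam1, Eng and Stab1, but not Tek, lowered the mean summed level to 14.9 CPM in H-old and 27.1 CPM in W-old, against 63.8 and 106.8 CPM. Low counts limit the precision of the rarer genes, with 1 to 50 Emcn counts in a library. 3 libraries a group cannot reach an exact permutation p under 0.1.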
